A study of Drosophila melanogaster with 2 samples.

Results

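Digestive enzyme genes of the Drosophila melanogaster midgut were examined for occupancy by the transcription factor GATAe. The set held 51 of the 13968 protein-coding genes of the chromosome arms and was fixed by name. No measured value was used to pick its genes, but the set was chosen with earlier results of these data known. It comprised 11 trypsins, 16 Jonah proteases, 3 other serine proteases, 3 amylases, 11 maltases, 1 lipase and 6 lysozymes. A gene was scored over its window, which is the gene body plus 2 kb upstream of it, and a peak was assigned to it when the peak's summit (its highest point) lay in that window.

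The data came from chromatin immunoprecipitation with sequencing, which recovers the DNA bound by a tagged protein. Whole embryos aged 0 to 24 h carried a fusion of GATAe to enhanced green fluorescent protein (GATAe-eGFP), and chromatin sheared to 200 to 800 bp was precipitated with an anti-GFP antibody. There was 1 group of 2 biological replicates, so no genotype, stage or treatment was set against another, and all values below describe a single condition. The labels also name a control experiment, which is not used here. The peak lists carry no read numbers, so the depth of sequencing is unknown. Whole embryos hold many tissues besides the midgut, and the levels of the enzymes' mRNAs are not part of these data.

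GATA factors are zinc-finger proteins that bind short sites with the core GATA. GATAe is the family member of the fly endoderm, is switched on by the earlier GATA factor serpent, and is known for its part in the differentiation of the midgut epithelium and in keeping its genes active. The enzymes studied here are secreted into the gut lumen. Trypsins and the chymotrypsin-like Jonah proteases cut dietary protein, amylases cut starch, maltases release glucose from short sugars, lipases cut fats, and lysozymes break the cell walls of ingested bacteria. Many of these genes lie in clusters of tandem copies, so neighbouring windows overlap and a single peak can fall in several of them. Each peak was therefore counted once.

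Peak lists on the dm6 assembly were deposited. The main list was the one the authors call conservative, which rests on both replicates and keeps peaks at an irreproducible discovery rate (IDR, an estimate of how likely a peak at that rank is to fail to recur between replicates) of at most 0.01. It held 3032 peaks on the chromosome arms. A longer ranked list from the same pairing held 62335 candidate peaks on the arms with no such limit. Each replicate also had a thresholded list, with 2476 peaks on the arms for replicate 1 and 1765 for replicate 2, and a longer ranked list with an IDR of its own for each candidate. An IDR from the list of 1 replicate cannot measure recurrence between the 2 replicates. It is therefore not the same measure as the IDR of the pairing. A second thresholded list of the whole series, made from other inputs, held 2920. The signal given for a peak is the authors' own measure of its strength, and a peak held by both ranked lists of the series has the same signal in each. Each replicate's lists carry signals of their own, which are not set against those of the series' lists.

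The sequences at 4 called summits are shown first because they carry the sites discussed below. A GATA word here means A or T, then GATA, then A or G, that is, the letters AGATAA or AGATAG and likewise those of TGATAA or TGATAG, on either strand. On the far strand the word reads with TATC in its middle. Each stretch is 101 bases of dm6 (RefSeq copy) centred on the summit, written 5′ to 3′ on the strand of the named gene, with GATA words in capitals. The Ser6 stretch is chrX:20963522-20963622 (minus strand), that of Jon25Bii is chr2L:4953206-4953306 (minus strand), that of Jon65Aiii is chr3L:6050444-6050544 (plus strand) and that of Mal-B1 is chr2L:11845326-11845426 (plus strand).
Ser6: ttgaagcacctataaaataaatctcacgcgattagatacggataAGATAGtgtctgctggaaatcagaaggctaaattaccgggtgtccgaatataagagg
Jon25Bii: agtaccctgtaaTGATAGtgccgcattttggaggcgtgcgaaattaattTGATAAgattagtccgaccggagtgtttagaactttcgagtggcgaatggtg
Jon65Aiii: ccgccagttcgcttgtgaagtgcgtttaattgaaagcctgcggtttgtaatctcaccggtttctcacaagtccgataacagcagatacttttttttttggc
Mal-B1: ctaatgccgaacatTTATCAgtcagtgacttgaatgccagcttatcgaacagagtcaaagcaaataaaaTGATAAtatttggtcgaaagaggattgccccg

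GATAe-eGFP summits of the conservative list fell in the windows of 10 of the 51 digestive enzyme genes, through 9 distinct peaks. The 10 genes were the trypsins thetaTry and lambdaTry, the Jonah proteases Jon25Bii, Jon65Aii and Jon65Aiii, the serine protease Ser6, and the maltases Mal-A1, Mal-A2, Mal-A5 and Mal-B1. No amylase, no lysozyme and not the lipase mag held one. The share of 19.6% (exact 95% binomial interval 9.82 to 33.1%, counting error only) stood beside 19.0% of all protein-coding genes. Windows of the digestive enzyme genes were short, with a median of 2947 bp against 4164.5 bp for all protein-coding genes. Among the 6053 protein-coding genes whose windows fell between 2615 and 4161 bp, the 10th and 90th percentiles of the members' own windows, 11.8% held a summit, a value inside the members' interval. Per length, the members' merged windows held 6.83 summits per 100 kb, against 4.19 in the like windows and 2.81 in the windows of all protein-coding genes.

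By family, 4 of 11 maltases, 3 of 16 Jonah proteases, 2 of 11 trypsins and 1 of 3 other serine proteases had a summit. These counts are too small to order the families. All of the summits lay upstream, and 0 of the 51 gene bodies held one, which allows a share of up to 6.98% (exact 95% binomial interval), against 9.60% of protein-coding gene bodies and 2.36% of those with like windows. The members' gene bodies had a median length of 947 bp, against 2164.5 bp for all protein-coding genes. Of the 9 peaks, 8 were intergenic and 1 lay in an intron, none lay in an exon, and the protein-coding start nearest to the summit was a member's for 8.

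The choice of list changed the count. Replicate 1's own thresholded list placed a summit in 5 members (9.80%), against a background of 17.5% of protein-coding genes and 10.9% of those with like windows. They were Jon25Bii, Jon65Aii, Jon65Aiii, Jon65Aiv and Ser6. Replicate 2's own list did so for Ser6 alone (1.96%, exact 95% interval up to 10.4%), against 12.4% and 6.99%. The second series list gave 8 members (15.7%), against 17.7% and 10.7%, and shared 5 of them with the conservative list, which is 50% of the conservative list's members and 62.5% of its own. It lacked thetaTry, Jon25Bii, Mal-A1, Mal-A2 and Mal-A5 and added Jon65Aiv, Mal-A3 and Mal-A4. The like-window share lay inside the members' exact 95% interval in each of these 3 lists. Ser6 was the only member found in all 4 thresholded lists, and 13 members were found in at least 1.

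**Figure D1:**
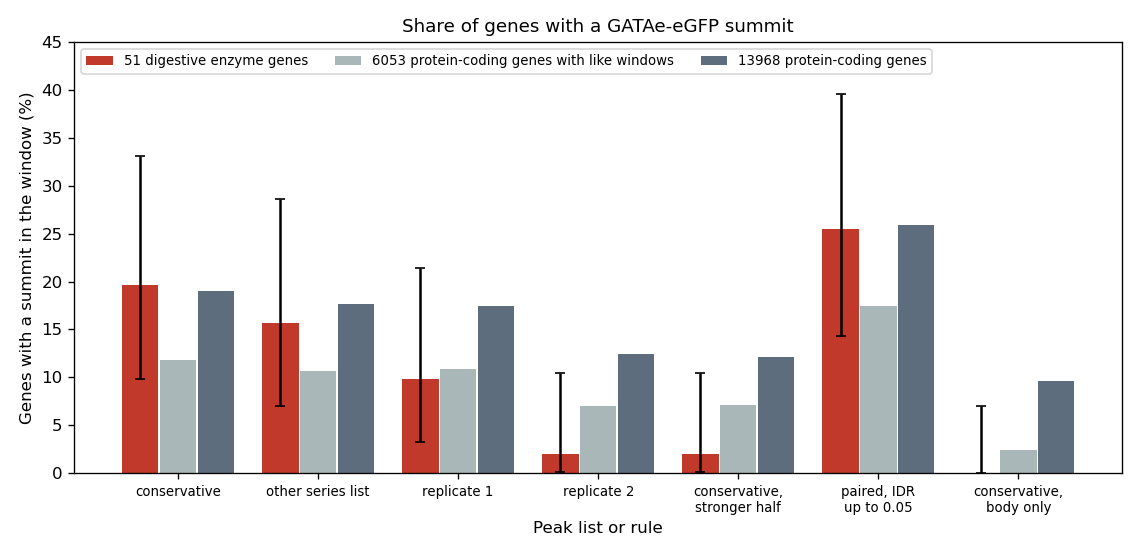
Share of genes (%, vertical axis) with a summit in the window for 7 lists or rules (horizontal axis), for the 51 digestive enzyme genes (left bar, with the exact 95% binomial interval), the 6053 protein-coding genes with like windows (middle bar) and all 13968 protein-coding genes (right bar). The members' bar was 19.6% in the conservative list and 1.96% in replicate 2's own list, and it was 0 when only gene bodies were scored.

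The members' peaks were of low signal within the conservative list. Their signals ran between 18.2 and 104, with a median of 71.6 against a list median of 92.3, and 1 of the 9, that of Ser6, lay above the list's median. Among the 9 peaks, 3 overlapped a thresholded peak of replicate 1, 1 a thresholded peak of replicate 2, and 6 (66.7%) neither. Over the whole list, 71.7% overlapped a thresholded peak of replicate 1, 55.1% of replicate 2, and 19.7% neither. All 9 overlapped a peak in both replicates' ranked lists.

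Among the proteases, Ser6 had the strongest and most repeatable peak. It lay at chrX:20963392-20963751 with a signal of 104 (rank 1189 in the conservative list), and its summit was 67 bp upstream of the Ser6 start in intergenic sequence. Replicate 1's own list gave it a signal of 51.3 (IDR 0.00225) and replicate 2's gave 47.4 (IDR 0.00844). Both replicates thus had it on the passing side of 0.01, which was the case for no other member. The single GATA word in the peak, AGATAG, was centred 3.5 bp from the summit and is the capitalised site in the Ser6 sequence above.

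Jon25Bii, a Jonah protease of a cluster of 3 on arm 2L, had a peak at chr2L:4953076-4953435 with a signal of 81.1 and its summit 120 bp upstream of the start. Replicate 1 gave 51.6 (IDR 0.00739) and replicate 2 gave 33.6 (IDR 0.0873). A TGATAA was centred 1.5 bp from the summit, with a TGATAG further upstream. Its neighbours Jon25Bi and Jon25Biii had no summit in their windows, although the same summit lay 489 bp outside the window of Jon25Biii. Candidates without a call in those windows reached 28.5 for Jon25Bi and 40.0 for Jon25Biii in the paired ranked list, and replicate 1 had none for Jon25Bi.

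The 150 bases before the starts of these neighbours show how differently the words are spread in a cluster of like genes. The Jon25Bi stretch is chr2L:4955145-4955294 and that of Jon25Biii is chr2L:4950768-4950917, both on the minus strand of dm6 and ending at the base before the annotated start, with GATA words in capitals.
Jon25Bi: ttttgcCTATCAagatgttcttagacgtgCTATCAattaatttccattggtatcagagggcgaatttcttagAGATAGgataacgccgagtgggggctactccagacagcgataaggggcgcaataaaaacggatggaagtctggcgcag
Jon25Biii: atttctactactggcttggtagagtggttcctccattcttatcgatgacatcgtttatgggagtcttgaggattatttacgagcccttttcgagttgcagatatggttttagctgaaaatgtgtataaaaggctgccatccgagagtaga
Jon25Bi held 3 GATA words in this stretch and Jon25Biii none, while the called peak stood at Jon25Bii, between them. The Jon25Biii stretch did hold GATAAG on the far strand, which is not a GATA word as defined here.

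In the Jonah 65A cluster on arm 3L, 1 conservative peak at chr3L:6050314-6050673 served the windows of both Jon65Aiii and Jon65Aii. Its summit was 263 bp upstream of Jon65Aiii and 1827 bp upstream of Jon65Aii, so that it counts for Jon65Aii only through the width of the window. The signal was 81.9. Replicate 1 gave 34.3 (IDR 0.00170) and replicate 2 gave 42.3 (IDR 0.0270). It was the only one of the 9 summits with no GATA word within 50 bp, and the Jon65Aiii sequence above has only bare GATA cores there, although the whole 360 bp peak held 3 words.

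Jon65Aiv in the same cluster had the stronger candidate but missed the conservative list. Its peak at chr3L:6038787-6039146, with the summit 188 bp upstream of the start, had a signal of 90.2 and was called in the second series list and in replicate 1's own list. It had 0 GATA words within 50 bp of its summit. Replicate 1 gave 64.3 (IDR 0.000183), its strongest value for any member, whereas replicate 2 gave 23.8 (IDR 0.536) and the pairing gave an IDR of 0.0189. The neighbouring yip7, a Jonah-like serine protease, and Jon65Ai reached 40.5 and 37.4 in the paired ranked list with no call, the yip7 candidate lying 1970 bp upstream, near the edge of the window. The 150 bases before Jon65Aiii (chr3L:6050607-6050756) and Jon65Aiv (chr3L:6039005-6039154), both on the plus strand, lie between summit and start and hold 2 words each.
Jon65Aiii: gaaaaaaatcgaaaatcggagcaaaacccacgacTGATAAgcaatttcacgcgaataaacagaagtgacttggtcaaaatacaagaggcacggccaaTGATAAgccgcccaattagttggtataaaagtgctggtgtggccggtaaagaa
Jon65Aiv: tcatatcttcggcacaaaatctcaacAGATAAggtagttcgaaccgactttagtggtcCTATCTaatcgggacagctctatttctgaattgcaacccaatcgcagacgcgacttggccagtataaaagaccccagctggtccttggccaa

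The other Jonah proteases had candidates only in the ranked lists. Jon74E had a candidate of 45.3 in its own intron, 280 bp inside the gene, with 3 GATA words within 50 bp of the summit. Replicate 1 gave it 17.1 and replicate 2 gave 27.7, with IDRs of 0.547 and 0.771. A candidate of 42.6 lay 82 bp upstream of Jon99Ci and 1656 bp upstream of Jon99Cii, with 2 words within 50 bp. Jon99Fi and Jon99Fii, which face away from each other, shared their strongest candidate at 29.4. The strongest values were 24.8 for Jon44E and 20.5 for Jon66Cii, and no candidate of the paired ranked list lay in the windows of Jon66Ci or Jon99Ciii.

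The 11 trypsin genes lie in 20.7 kb of arm 2R (chr2R:11336840-11357537), with 3 conservative peaks among them, all in the windows of 2 genes. The gene lambdaTry had a peak at chr2R:11336606-11336965 with a signal of 67.7 and the summit 54 bp upstream of the start. Replicate 1 gave 41.1 (IDR 0.0143) and replicate 2 gave 28.3 (IDR 0.272). The window of thetaTry held a pair of overlapping peaks with signals of 81.9 and 18.2, at 1032 and 1238 bp upstream, and the start nearest to the weaker summit was that of alphaTry. They overlapped the same peak of each replicate, with 28.6 in replicate 1 (IDR 0.0677) and 46.9 in replicate 2 (IDR 0.381). None of the trypsins' peaks passed in either replicate alone.

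The gene kappaTry was just short of a call, with a candidate of 49.5 at 42 bp upstream of the start, an IDR of 0.0320 in the pairing and 2 words within 50 bp. In the paired ranked list zetaTry reached 36.6, alphaTry and betaTry shared another candidate of 36.6 that lay 27 bp upstream of alphaTry, and epsilonTry reached 19.3. At the other end of the cluster, gammaTry, deltaTry and iotaTry had no candidate in the paired ranked list, nor did etaTry. The windows of gammaTry and deltaTry were almost wholly repeated sequence, with 5.11% and 6.48% of their 50-base stretches occurring once in the genome, and that of iotaTry stood at 52.1%. Across all families, 16 members had under 90% single-copy stretches, and 0 of these 16 had a conservative summit. All 10 genes with one were thus among the other members. The share over all 51 members, which include the 16, was 19.6%. No share is given for other genes with such windows. The 16 included Amy-p (75.1%), Amy-d (74.6%), LysD (85.0%), LysE (87.8%), LysP (60.9%) and LysS (37.2%). Among them were also Jon99Cii (74.4%), Jon99Ciii (78.9%), Jon99Fi (76.6%) and Jon99Fii (76.4%). The labels do not say how reads from repeated sequence were placed. The part of repeats in these windows without a conservative summit was not tested.

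The 8 Mal-A maltases lie in 24.3 kb of arm 2R (chr2R:8449664-8473961), where 2 conservative peaks covered 3 genes. The peak at chr2R:8453412-8453771 had a signal of 71.6 and a summit 35 bp upstream of Mal-A2 and 1688 bp upstream of Mal-A1, which is transcribed the other way. Replicate 1 gave 35.2 (IDR 0.0130) and replicate 2 also gave 35.2 (IDR 0.187). Mal-A5 had a peak at chr2R:8462414-8462773 with a signal of 57.4, 159 bp upstream, from 27.3 in replicate 1 (IDR 0.132) and 38.2 in replicate 2 (IDR 0.202). The strongest candidate of the cluster, 81.5 at chr2R:8457954-8458313, lay 242 bp upstream of Mal-A3 and 681 bp upstream of Mal-A4. It had 0 GATA words within 50 bp of its summit. It was in the second series list but had an IDR of 0.448 in the pairing, with 49.9 in replicate 1 (IDR 0.0613) and 30.4 in replicate 2 (IDR 0.0435).

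Mal-A7 and Mal-A8, which diverge, shared a candidate of 38.8 at 1 bp upstream of Mal-A8, and Mal-A6 reached 21.8. Outside the cluster, Mal-B1 on arm 2L had a conservative peak at chr2L:11845196-11845555 with a signal of 65.2 and the summit 1850 bp upstream. That summit lay in an intron of Pde1c, a cyclic nucleotide phosphodiesterase gene, and the nearest start was that of CG42486 at 1692 bp. Replicate 1 gave 30.6 (IDR 0.647) and replicate 2 gave 35.0 (IDR 0.802), although the pairing gave an IDR of 0.00627, and the Mal-B1 sequence above holds 2 words. Its neighbour Mal-B2 reached 23.0. The alpha-glucosidase gene tobi, known as a target of insulin signalling from the brain, had a candidate of 44.7 at 138 bp upstream with an IDR of 0.0691. That candidate had 2 words within 50 bp.

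Amylases, the lipase and the lysozymes had no conservative summit. Amy-p, the proximal amylase copy, had a candidate of 35.9 at 103 bp upstream, and Amyrel, an amylase relative, had 42.0 at 104 bp upstream, both present in the ranked lists of both replicates within 250 bp of the start. Amy-d, the distal copy, reached 17.4 in the pairing and was empty in each replicate's own list. The windows of Amy-p and Amy-d were among those with repeated sequence given above, whose part here was not tested. The lipase gene mag reached 15.0.

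The 6 lysozyme genes lie in 33.5 kb of arm 3L. LysD and LysE shared a candidate of 46.7, in an intron of mwh, a gene of wing hair polarity, at 33 bp upstream of LysE and 1598 bp upstream of LysD, with 31.8 in replicate 1 (IDR 0.0327) and 22.2 in replicate 2 (IDR 0.258). That candidate had 0 GATA words within 50 bp of its summit. LysB reached 32.1, LysS 26, LysP 19.4 and LysX 10.9. A conservative peak with a signal of 84.0 missed the window of LysB by 12 bp. It was the summit nearest outside any member's window, followed by those missing alphaTry by 262 bp, betaTry by 327 bp and etaTry by 369 bp. Just inside the limit were the summits at 1850 bp for Mal-B1, 1827 bp for Jon65Aii and 1688 bp for Mal-A1.

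**Figure D2:**
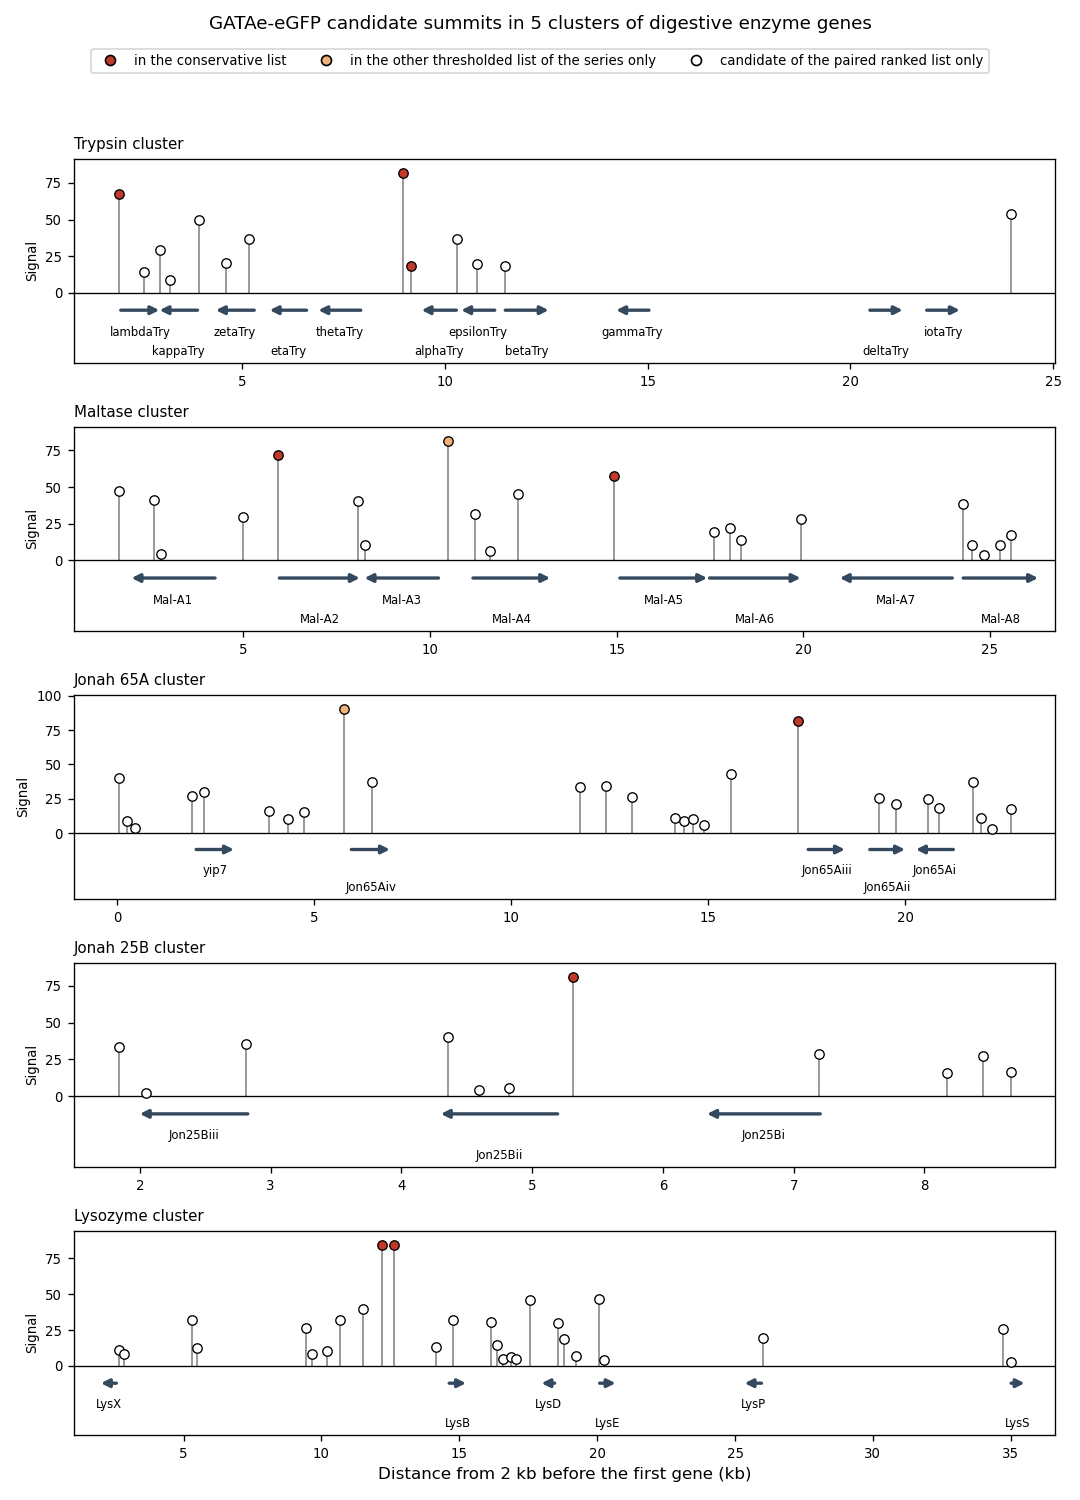
Candidate summits of the paired ranked list in 5 gene clusters, with signal in the authors' units (vertical axis) against the distance in kb from 2 kb before the first gene (horizontal axis). Arrows are genes pointing in the direction of transcription, red points are in the conservative list, orange points in the second series list only, and white points in neither. The 3 red points of the trypsin cluster stand in its left part, and the 2 of the lysozyme cluster lie between LysX and LysB, outside the genes' windows.

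In the ranked lists, most members had some candidate. The paired ranked list placed at least 1 in 44 of 51 windows (86.3%), against 81.1% of all protein-coding genes and 74.3% of those with like windows. Replicate 1's own ranked list reached 36 members (70.6%), against 74.9% of all protein-coding genes and 65.3% of those with like windows. Replicate 2's reached 46 (90.2%), against 81.5% and 75.5%. Both lists reached 35 of the members (68.6%), against 66.5% of all protein-coding genes. Where a window held a candidate, the strongest 1 had a median signal of 40.3 in the paired ranked list for members, against 33.3 with like windows and 38.4 over all protein-coding genes. The windows of gammaTry, deltaTry and Jon99Ciii held none in any ranked list, and those of etaTry, iotaTry, Jon66Ci and Ser8 held some in replicate 2 but none in the pairing. In replicate 2 the strongest were 22.3 for etaTry, 15.2 for iotaTry, 17.6 for Jon66Ci and 14.5 for Ser8, a serine protease away from the clusters.

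**Figure D3:**
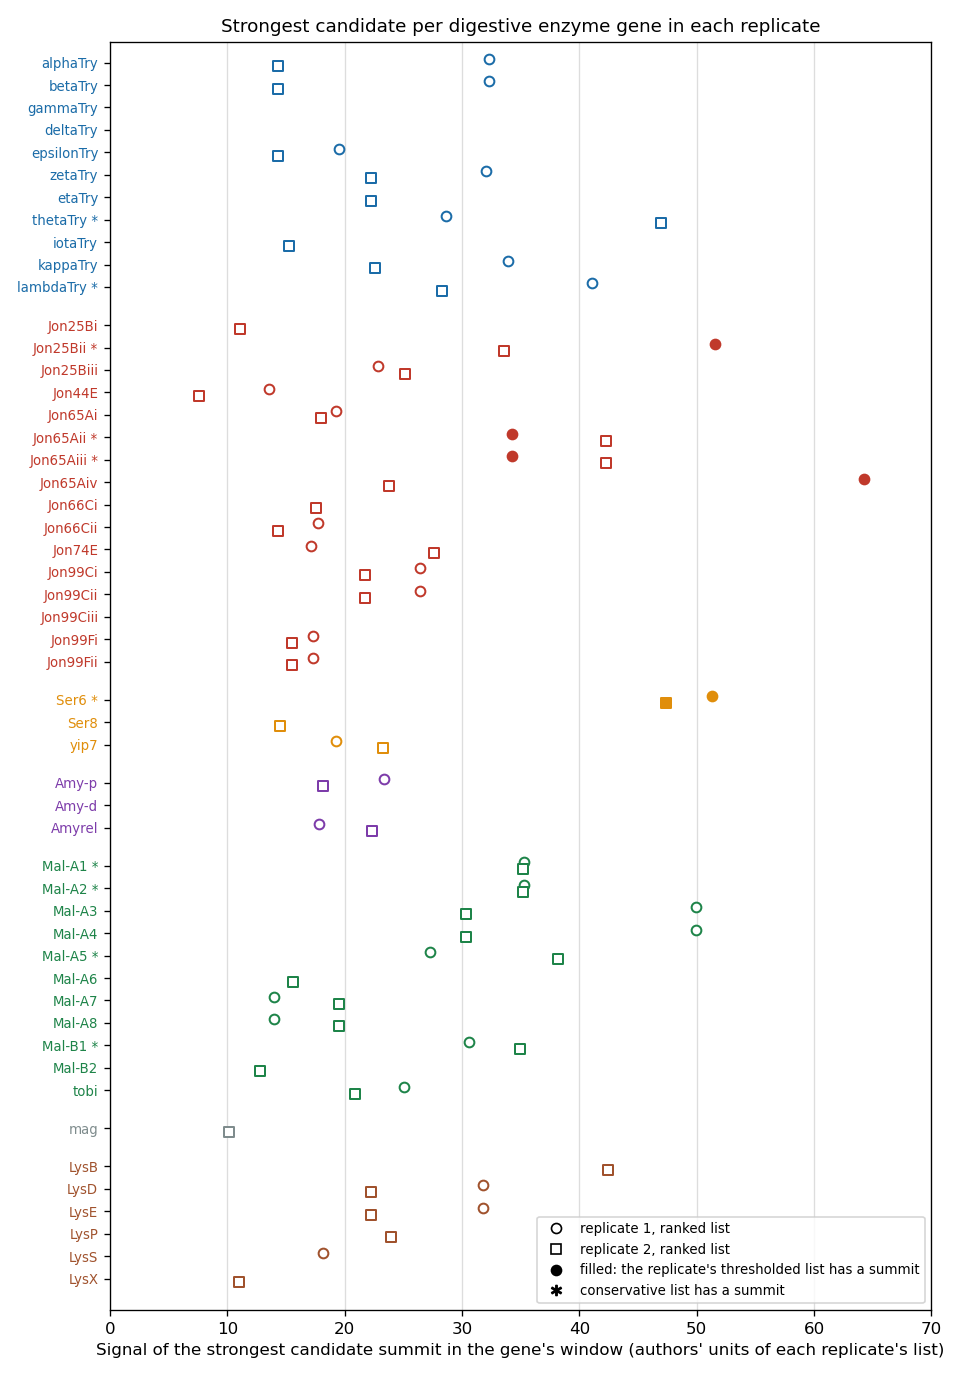
Signal of the strongest candidate summit in each member's window (horizontal axis, authors' units) in replicate 1 (circles) and replicate 2 (squares), by gene (vertical axis) and coloured by family. Filled symbols mark genes with a summit in that replicate's thresholded list and stars mark genes with a conservative summit. A missing symbol means no candidate in that replicate. Jon65Aiv stands highest in replicate 1 at 64.3 and Ser6 in replicate 2 at 47.4, and Ser6 is filled in both.

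The members' merged windows held 78.2 candidates of the paired ranked list per 100 kb. The like windows held 55.4 and the windows of all protein-coding genes 49. Many members had a candidate close to the start. In the paired ranked list, 22 of 51 members (43.1%, exact 95% interval 29.3 to 57.8%) had a candidate summit within 250 bp upstream of the start, against a background of 25.9% of protein-coding genes and 23.5% of those with like windows. The 250 bp limit was chosen after the positions had been seen. The 22 comprised 5 trypsins, 3 Jonah proteases, 2 other serine proteases, 2 amylases, 5 maltases and 5 lysozymes. The lysozymes' candidates there had signals of 46.7 (LysE), 30.2 (LysD), 19.4 (LysP), 10.9 (LysX) and 2.93 (LysS). Each replicate's own ranked list gave 1 lysozyme, LysE. Past the other end of the gene, within 250 bp of it, 8 members (15.7%) had a candidate, against 9.87% of protein-coding genes. The members' share was thus the higher one at both ends of the gene. Replicate 1's own ranked list gave 17 members (33.3%) and replicate 2's gave 19 (37.3%), against 21.3% and 20.7% of protein-coding genes. With a candidate required in both, 14 members had one (27.5%), against 12%. They were alphaTry, kappaTry, lambdaTry, Jon25Bii, Jon65Aiv, Jon99Ci, Ser6, Amy-p, Amyrel, Mal-A2, Mal-A3, Mal-A5, tobi and LysE.

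GATA words were frequent at the members' summits. Of the 9 conservative summits, 8 (88.9%, exact 95% interval 51.8 to 99.7%) had a word within 50 bp, against 46.0% of all 3032 summits on the arms. The 8 summits of the second series list in members' windows gave 4 (50%, 15.7 to 84.3%), against 45.4% of that list. Neither count is large, and the summits of the 2 overlapping peaks at thetaTry were counted separately. Within 25 bp, 7 of 9 conservative summits had a word, against 27.6% of the list, and 6 of 9 had GATAAG within 50 bp, against 28.9%. GATAAG, searched on either strand, begins with the last 5 letters of AGATAA and of TGATAA, so the counts of both overlap. Among the 21 distinct candidates within 250 bp upstream of a member's start, 14 (66.7%) had a word within 50 bp, against 15 of the members' 82 other candidates (18.3%), 26% of such candidates before any protein-coding start and 18.0% of all candidates. The members' promoters hold more words than other promoters, as given below, so any stretch there would more often hold one. The share expected from this word content alone was not computed.

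The members' promoters were rich in GATA words whether or not a peak was called. In the 300 bases between 250 bp before and 50 bp after the start, 46 of 51 members (90.2%, exact 95% interval 78.6 to 96.7%) had at least 1 word, against 46.7% of all protein-coding promoters and 50.7% of those with like windows. GATAAG was present in 41 (80.4%, 66.9 to 90.2%), against 18.9% and 21%. The members' promoters held 1.78 words on average, against 0.687 over all protein-coding promoters. Base composition was close, with a median of 60.0% A and T for members and 62.0% for all, and among the 2537 protein-coding promoters within 2 points of the members' median 46.6% had a word and 20.7% had GATAAG. Bare GATA was in 98.0% of the members' and 87.0% of all. These genes are copies of one another within families and are not independent. Of all pairs of members' promoters, only that of gammaTry and deltaTry was at least 70% identical when aligned, at 99.3%. Promoters below that limit can still share short words, and descent of the words from a common copy was not tested.

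By family, 10 of 11 trypsins, 14 of 16 Jonah proteases, 9 of 11 maltases, all 6 lysozymes, all 3 amylases, all 3 other serine proteases and mag had a word. The words gathered before the start. In the 50 bp bin from 100 to 50 bp upstream 43.1% of members had one, against 12.6% of protein-coding promoters, and from 50 bp upstream to the start 33.3% had one, against 8.86%. In the 50 bp after the start the values were 3.92% and 7.22%. Words were centred at 95 and 46 bp upstream of Jon99Fi, at 128 and 39 bp upstream of Jon99Fii, at 106 and 48 bp upstream of LysB, and at 41 bp upstream of mag, all 4 genes without a summit in any thresholded list. Among the 41 members with no conservative summit, 38 (92.7%) had a word in the promoter, and among the 10 with a summit 8 (80.0%) did.

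The 5 members without a word were etaTry, Jon25Biii, Jon65Aii, Mal-A1 and Mal-B2. This grouping depends on the word chosen. The promoters of etaTry, Jon25Biii and Mal-A1 did hold GATAAG, and all of the 5 but that of Mal-B2 held bare GATA. For Jon65Aii and Mal-A1, which did have a conservative summit in the window, that summit was nearer to the start of a neighbour whose promoter has a word, Jon65Aiii and Mal-A2. In the paired ranked list none of the 5 had a candidate within 250 bp upstream, against 22 of the 46 members with a word (47.8%). Replicate 2's own ranked list did place one before Mal-A1. Over all protein-coding genes the shares in the paired ranked list were 23.6% without a word and 28.5% with one. A group of 5 members is too small to link word and candidate. Conservative summits in the window went the other way, in 2 of the 5 and in 8 of the 46. Over all protein-coding genes they were in 1307 of 7448 without a word and 1350 of 6520 with one. Candidates of both replicates stood within 250 bp upstream of 14 of the 46 (30.4%), against 14.5% of protein-coding genes whose promoter has a word.

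**Figure D4:**
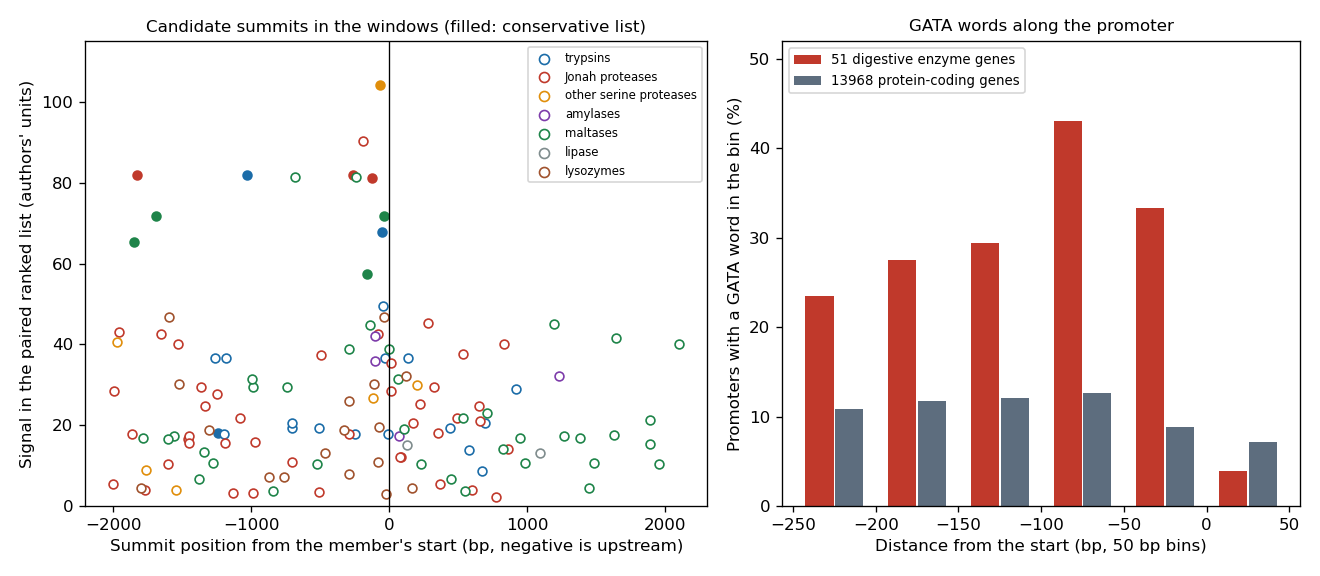
Left, every candidate summit of the paired ranked list in a member's window by its position from the start in bp (horizontal axis) and its signal in the authors' units (vertical axis), coloured by family and filled for the conservative list. A summit shared by several genes appears once for each. Right, share of promoters (%) with a GATA word in each 50 bp bin, for the 51 members (left bars) and all 13968 protein-coding genes (right bars). The members' bars exceed the others in every bin before the start, most at 100 to 50 bp upstream with 43.1% against 12.6%, and not in the bin after it.

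Other lists of genes, of hydrolases and of nutrient transporters, were set beside the enzymes. Whether these genes are active in the gut was not measured. Conservative summits lay in the windows of 7 of 22 genes of other hydrolases (31.8%, exact 95% interval 13.9 to 54.9%) and of 6 of 24 nutrient transporter genes (25%, 9.77 to 46.7%), against the 19.0% of all protein-coding genes. Their windows were longer, with medians of 5286 and 4494.5 bp. All of these intervals contain the members' 19.6%. A GATA word was in the promoters of 16 of the 22 (72.7%, 49.8 to 89.3%) and 15 of the 24 (62.5%, 40.6 to 81.2%).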

How the data were processed

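Chromatin immunoprecipitation of GATAe-eGFP was done on whole embryos in 2 biological replicates, per the labels. No label or file header names an aligner or a peak caller. The authors deposited peak lists on dm6, each peak with a summit, a score and a signal. The score follows the IDR and is at least 830 in every thresholded list, as deposited. The signal was given by the authors to express peak strength, on a depth that is unknown. In the ranked lists the authors added −log10 of each IDR, from which the IDRs printed here were computed. All 3047 conservative peaks were found among the 62931 candidates of the paired ranked list.

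Gene models came from Ensembl release 115 and bases from the RefSeq copy of the assembly. As a check, 99.5% of the annotated start codons read ATG. All 51 members had the same ends in both annotations. Coordinates count from 1. A replicate's value at a peak is that of its own strongest peak overlapping by at least 1 bp. The enzyme list and the lists of 22 other hydrolases (1 matched under an older symbol) and 24 transporters were chosen with earlier results of these data known, so no p-value is given. Intervals are exact binomial (Clopper-Pearson) and cover counting error only. The members named in full are those with a conservative summit and the 10 others with the strongest candidates. Every other member is named with a value where it has one. Genes outside the list are named where a summit lies in them or nearer to their start. The counting steps were checked on simulated data. Python 3.11.15 was used with scipy 1.17.1 and numpy 2.4.6, and figures were drawn with matplotlib 3.10.9 from tables read by pandas 2.3.3. Other windows, lists, distances and words were tried. The limit of 250 bp upstream, with its other distances and lists, the union of both series lists, the 50 bp bins, the base composition and likeness of promoters were chosen after the data had been seen.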

Additional observations from a re-analysis of the deposited data

How the results depend on the processing

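Leaving out a replicate, which means using the other's own thresholded list, gave between 1 and 5 members with a summit, against 10, and between 1 and 4 distinct peaks, against 9. The IDR of those lists is another measure than that of the pairing, so the lower counts do not measure disagreement between the replicates. By family these lists gave 0 trypsins, 0 maltases and between 0 and 4 Jonah proteases, and the share of summits with a GATA word was between 75.0% (3 of 4) and 100% (1 of 1), too few to show stability. Gene bodies alone gave 0 members, 0 peaks and 0 in each family, whereas 5 kb upstream gave 18 members (35.3%, against 25.6% of protein-coding genes and 18.9% of those with like windows), with 5 trypsins, 7 maltases and 1 lysozyme. Starts within 1 kb gave 6 members (11.8%, against 13.8% and 9.55%), with 1 trypsin and 2 maltases. The nearest start alone gave 2 maltases, any overlap of the peak gave 1 lysozyme (LysB), and the second series list gave 1 trypsin. In the part of the list at or above its median signal, 1 member (1.96%, against 12.1% and 7.10%) and 1 peak were left, with 0 trypsins, 0 Jonah proteases and 0 maltases. The ratio of the members' median signal to the list's was 0.776, and the same by rank was 0.499. A word was near 50% of the members' summits in the second series list, near 100% within 100 bp, and near 100% with bare GATA. Promoters had 98.0% with bare GATA and 98.0% with 1 kb upstream. Candidates up to 250 bp upstream, in 22 members, were in 14 with both replicates required and in 12 within 100 bp. The causes of these changes were not tested beyond the settings themselves. Of 123 alternative values, 84 stayed close to the main value and 39 did not. Counts of 0 that stayed at 0, as for the amylases and the lipase, are among the 84. The members' share was above that of like windows in the conservative list (19.6% against 11.8%) and the second series list (15.7% against 10.7%). It was below in replicate 1's own list (9.80% against 10.9%), replicate 2's (1.96% against 6.99%), the part at or above the median signal, and gene bodies alone (0 against 2.36%). Close meant within 1.5 times for a count, within the main exact interval for a share, and within the spread over the members' peaks for the signal ratio. No paired analysis was possible because there is 1 group and no test between groups. With 2 replicates and no read counts, no error between replicates could be given for a peak.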
